A study of Mus musculus with 15 samples.

Results

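The 10 genes described here encode structural and growth proteins of the axon. Nefl, Nefm and Nefh encode the light, medium and heavy subunits of neurofilaments, Ina encodes alpha-internexin and Prph encodes peripherin. Stmn2, Gap43, Map1b, Mapt (tau) and Uchl1 encode proteins of the growing or mature axon. They were chosen by symbol, with no threshold on measured values. All 10 were found among the 36144 genes of the table, and all 10 passed the filter on low values (1 TPM or more in 3 or more libraries). TPM gives a gene's share of all transcripts in a library, scaled to a total of 1000000 after division by transcript length, so levels can be compared between genes.

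Neurofilaments are the main intermediate filaments of large myelinated axons. They are heteropolymers in which the light subunit can assemble with the medium and heavy subunits, whose long phosphorylated tails project from the filament. Alpha-internexin joins the filament in central neurons, and peripherin in neurons that send axons to the periphery, such as motor neurons. Their number is a determinant of axon caliber, and neurofilament protein released from damaged axons is measured in blood and cerebrospinal fluid as a clinical marker in spinal muscular atrophy (SMA), a motor neuron disease caused by loss of the protein SMN. Microtubules, also part of the axonal cytoskeleton, are regulated by stathmins and by the microtubule-associated proteins Map1b and tau.

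RNA was sequenced from motor neurons of lumbar segments L1 to L3 of FVB mouse pups at postnatal day 6. The neurons had been labelled with cholera toxin subunit B and were cut out by laser-capture microdissection. There were 5 groups of 3 libraries, described as biological replicates, and how many animals each library holds is not given in the sources used here. WT pups were Smn+/+;SMN2;SMNΔ7 littermates given vehicle, and SMA pups were Smn-/-;SMN2;SMNΔ7 given vehicle. The other 3 groups had the SMA genotype and were injected intraperitoneally each day from postnatal day 0. SMA+MW150 received MW150, an inhibitor of the kinase p38α, at 5 mg/kg. SMA+Pifithrin-alpha received Pifithrin-α, an inhibitor of p53, at 2.2 mg/kg, and SMA+SMN-C3 received SMN-C3, a compound that alters the splicing of SMN2, at 3 mg/kg. All 5 groups therefore carry the human transgenes SMN2 and SMNΔ7, and males and females were used in equal proportions. The 3 treated groups share the same SMA controls, and SMA and the treated groups share the same WT controls, so these comparisons are not independent.

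The genotype labels were checked with Smn1, the mouse gene that the SMA pups lack. Smn1 was at 8.97 to 23.3 TPM in WT and at most 1.498 TPM in the 12 libraries of the SMA genotype. The 5 motor neuron markers (Chat, Slc18a3, Slc5a7, Isl1, Mnx1) were present in every library, with a summed level of 439 to 958 TPM. Transcripts of other cells were present too. The 9 oligodendrocyte lineage genes summed to 444 to 5842 TPM, the 6 astrocyte genes to 109 to 577 TPM and the 8 microglia genes to 18.8 to 129 TPM. The sensory neuron genes, which would mark carried-over ganglion cells, summed to at most 4.52 TPM. A pair of libraries stood apart from the other 13. The share of TPM from the 13 mitochondrially encoded genes was 21.9% for WT 1 and 20.4% for SMA+Pifithrin-alpha 3, against 3.76% to 12.6% elsewhere. Changes of the 10 genes named below that moved by over 1.5 times without these libraries are given with and without them.

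Together the 10 genes took 1.45% to 2.61% of all TPM. Over the 15 libraries the mean level was highest for Nefm (5534 TPM) and Nefl (5262 TPM), which held places 9 and 11 among all genes. Uchl1 followed at 2219 TPM, Stmn2 at 1674 TPM, Prph at 1548 TPM, Map1b at 1433 TPM, Gap43 at 1317 TPM and Nefh at 1022 TPM. Ina (351 TPM) and Mapt (295 TPM) were the lowest, at places 470 and 576. These are gene values over all transcript models. The full coding model of Map1b averaged 221 TPM, below the gene value of Mapt, and most of the remainder was short noncoding models. A retained-intron model averaged 29.6% of Uchl1 TPM. Some neighbours in this order cannot be separated. Nefm was above Nefl in only 8 of 15 libraries, Stmn2 above Prph in 10, Prph above Map1b in 11 and Map1b above Gap43 in 10. In contrast, every Nefl value exceeded every Uchl1 value, and every Nefh value exceeded every Ina value. In bulk samples such as these, fewer cells of a type and less RNA per cell cannot be told apart.

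**Figure D1:**
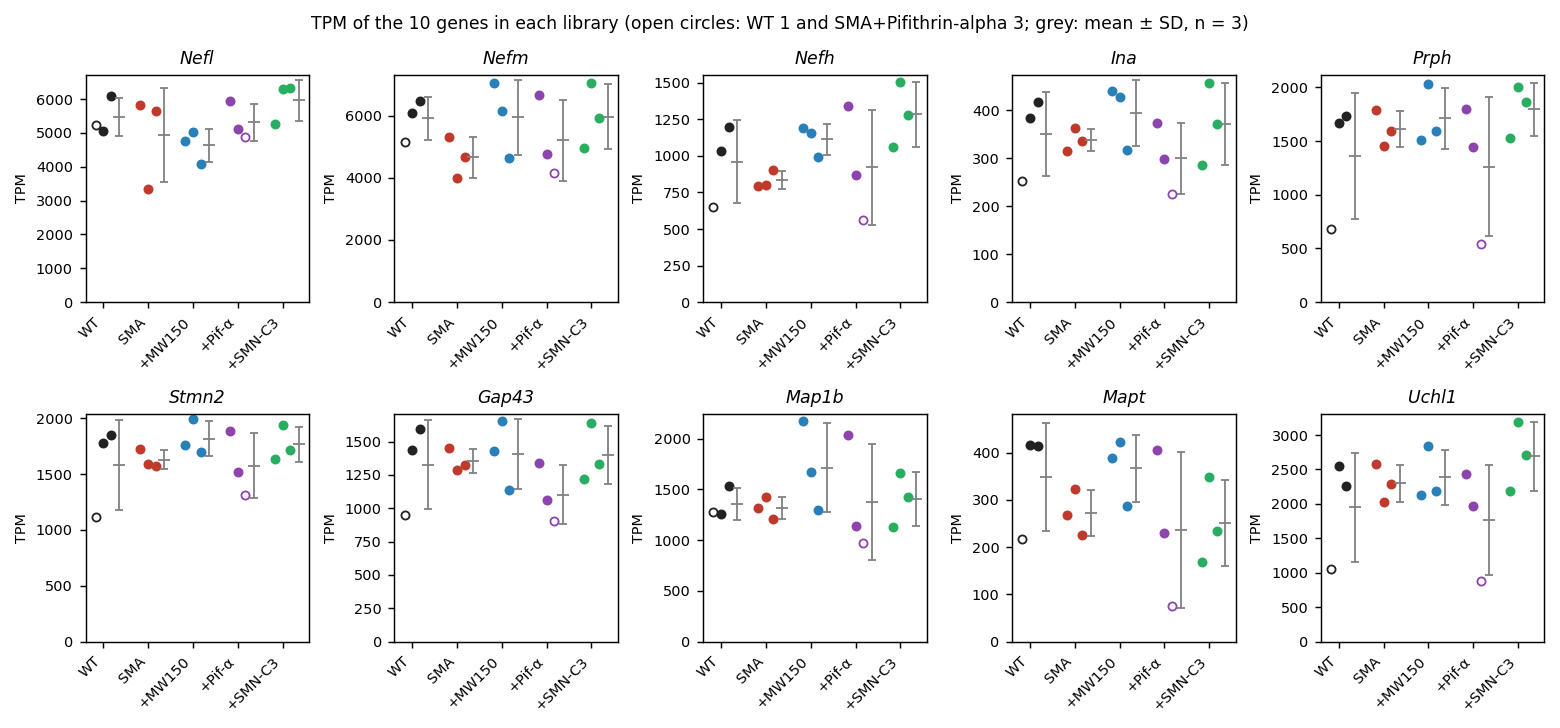
Level of each gene in TPM (vertical axis, from 0) in the 15 libraries, by group (horizontal axis). Each point is 1 library, open circles are WT 1 and SMA+Pifithrin-alpha 3, and grey bars show the mean ± SD (n = 3). The open circles lie far below the other points for Prph (680 and 541 TPM) and Uchl1 (1053 and 879 TPM), while the groups overlap for most genes.

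The question of the main comparisons is whether loss of SMN changed the transcripts of these genes and whether any treatment did. None of the 10 was called in any of the 7 comparisons by limma (Benjamini-Hochberg adjusted p under 0.05 over 15425 tested genes). Calls were rare in the whole table. Of all tested genes 0.363% were called for SMA against WT. Against SMA the share was 0.00648% with MW150, 0.00648% with Pifithrin-α and 0.0648% with SMN-C3. Against WT it was 0.143% with MW150, 0.117% with Pifithrin-α and 0.0194% with SMN-C3. The test over all 5 groups called 0.22% of the genes and none of the 10, whose adjusted p ranged from 0.599 (Nefh) to 0.871 (Stmn2).

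Nor did any of the 10 reach an unadjusted p under 0.05. Among all tested genes 13.5% did for SMA against WT. The share was 1.9% with MW150, 10.7% with Pifithrin-α and 8.53% with SMN-C3, each against SMA. Against WT it was 10.2%, 5.78% and 7.31% in the same order, and 9.46% for the 5 groups at once. Values of all 10 genes overlapped between SMA and WT, where 18.3% of all tested genes did not overlap. They also overlapped between Pifithrin-α and SMA (15.3% of all tested genes did not), between Pifithrin-α and WT (6.87%) and between SMN-C3 and WT (12.8%). A p above the threshold does not show that the groups were alike, and the intervals below give the changes that these libraries leave possible.

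**Figure D2:**
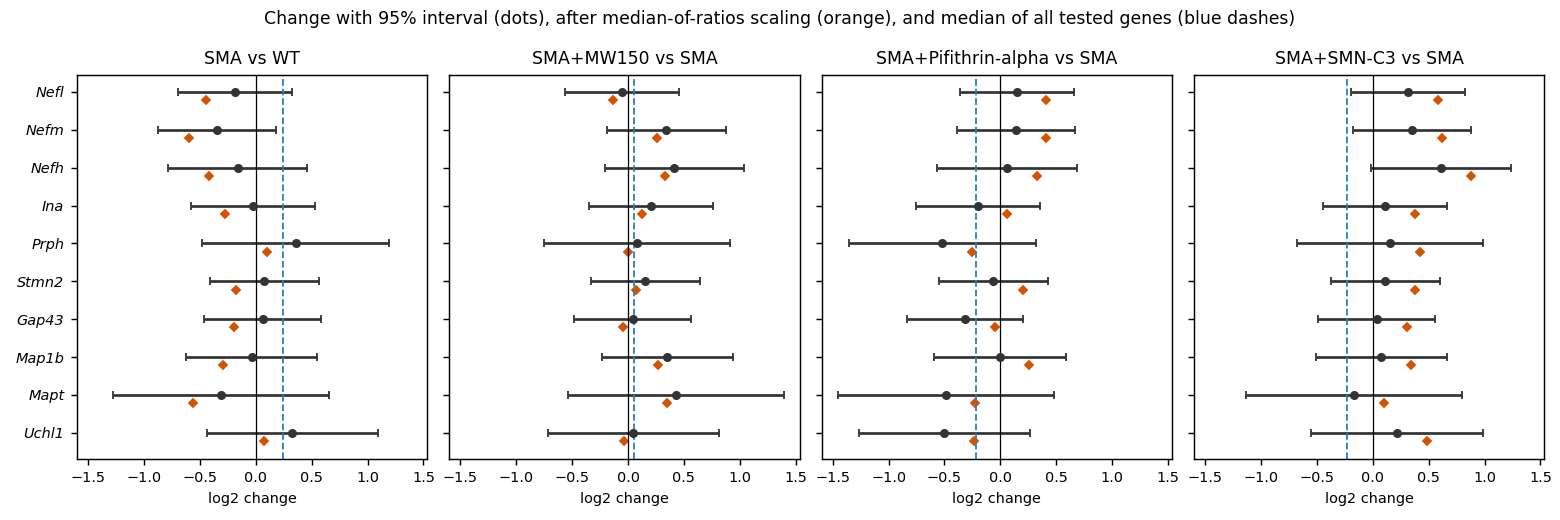
Change of each gene on the log2(TPM + 1) scale (horizontal axis) in the comparison of SMA with WT and in the comparisons of each treated group with SMA. Black dots and bars are the limma estimate with its 95% interval, orange diamonds the estimate after median-of-ratios scaling, and the blue dashed line the median of all tested genes. Every interval includes 0, and the interval that lies farthest from it belongs to Nefh under SMN-C3 (-0.013 to 1.23).

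The light subunit Nefl, the core on which neurofilaments assemble, had the smallest spread of the 3 subunits within groups (SD of 0.24 on the log2 scale). WT libraries held 5247, 5069 and 6101 TPM and SMA libraries 5826, 3329.8 and 5642 TPM. The treated libraries held 4775, 5039 and 4086 TPM with MW150, 5934, 5124 and 4867 TPM with Pifithrin-α and 5272, 6304 and 6313 TPM with SMN-C3. Only SMA 2 fell clearly below the rest, and it was also the SMA library with the most astrocyte (577 TPM) and oligodendrocyte lineage (4252 TPM) transcripts, whose part in the low value was not tested. The change from WT to SMA was -0.19 (95% interval -0.70 to 0.32, adjusted p = 0.698). Without SMA 2 it was 0.072. The MW150 libraries lay below all 3 WT libraries, a change of -0.24 (95% interval -0.75 to 0.27, adjusted p = 0.648). Nefl was the only one of the 10 genes whose values did not overlap in that comparison. Of all tested genes 2% were lower without overlap there, and 19.9% did not overlap in either direction.

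The medium subunit Nefm was nominally lowest in untreated SMA. Its values were 5150.1, 6085 and 6478 TPM in WT, 5301, 3982 and 4681 TPM in SMA, 7036, 6157 and 4648 TPM with MW150, 6651, 4779 and 4166 TPM with Pifithrin-α and 4957, 7033 and 5908 TPM with SMN-C3. SMA and WT overlapped only through WT 1, which was just below SMA 1. The group mean was 5904 ± 682 TPM in WT and 4655 ± 659.6 TPM in SMA (SD, n = 3), a fold of 0.787 (95% interval 0.545 to 1.14) on the log2(TPM + 1) scale. The log2 change was -0.35 (95% interval -0.88 to 0.18, adjusted p = 0.503), and -0.44 without WT 1 and SMA+Pifithrin-alpha 3. The comparisons of the treated groups with SMA gave 0.34 (95% interval -0.19 to 0.87, adjusted p = 1) for MW150, 0.14 for Pifithrin-α (0.29 without those libraries) and 0.35 (95% interval -0.18 to 0.88, adjusted p = 0.747) for SMN-C3. All 3 estimates were positive and none differed beyond its interval.

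The heavy subunit Nefh, which carries the longest phosphorylated tail and appears last as axons mature, gave the smallest p of the set. Its levels were 651, 1032 and 1199 TPM in WT and 793, 801 and 904 TPM in SMA. They were 1189, 1156 and 992 TPM with MW150, 1340.1, 866 and 559.7 TPM with Pifithrin-α and 1060.3, 1506 and 1282 TPM with SMN-C3. All SMA+SMN-C3 and all SMA+MW150 libraries were above all 3 untreated SMA libraries. The change under SMN-C3 was 0.61 (95% interval -0.013 to 1.23, adjusted p = 0.589), with an unadjusted p of 0.0545, a fold of 1.53 (95% interval 0.991 to 2.35). Under MW150 it was 0.42 (95% interval -0.21 to 1.04, adjusted p = 1). Nefh was the 1 of 10 genes without overlap in each of these comparisons. Of all tested genes 2.52% were higher without overlap with SMN-C3 and 7.53% with MW150, and 20.7% and 10.9% did not overlap in either direction. The Pifithrin-α libraries spread from 560 to 1340 TPM and overlapped every group. Between SMA and WT the change was -0.16 (95% interval -0.79 to 0.46, adjusted p = 0.793), and -0.42 without WT 1 and SMA+Pifithrin-alpha 3.

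Ina encodes alpha-internexin, a subunit that precedes the neurofilament triplet in developing neurons. It ranged from 226 TPM in SMA+Pifithrin-alpha 3 to 457 TPM in SMA+SMN-C3 2, with 351 ± 87.3 TPM in WT and 338 ± 23.3 TPM in SMA (SD, n = 3). Its change between SMA and WT was -0.024 (95% interval -0.58 to 0.53, adjusted p = 0.969), and -0.25 without WT 1 and SMA+Pifithrin-alpha 3. All groups overlapped.

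Peripherin is the intermediate filament typical of neurons with peripheral axons, and its level separated libraries rather than groups. Prph stood at 680.5, 1667 and 1734 TPM in WT, 1789, 1449.5 and 1596 TPM in SMA and 1507, 2029.8 and 1595 TPM with MW150. With Pifithrin-α it was 1795, 1445 and 541 TPM, and with SMN-C3 1524, 2006 and 1860.0 TPM. WT 1 and SMA+Pifithrin-alpha 3, the libraries of highest mitochondrial share, were far below the other 13, which lay between 1445 and 2030 TPM. The change between SMA and WT was 0.36 (95% interval -0.48 to 1.19, adjusted p = 0.654), and it turned to -0.083 without those libraries. In the same way the change under Pifithrin-α went from -0.52 to 0.0048.

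Uchl1 encodes an abundant neuronal ubiquitin hydrolase and followed the same pattern as Prph. Its levels were 1053, 2548 and 2258 TPM in WT, 2573, 2035 and 2294 TPM in SMA and 2125, 2844 and 2194 TPM with MW150. They were 2435, 1968 and 879 TPM with Pifithrin-α and 2186, 3187 and 2704 TPM with SMN-C3. Again only the pair that stood apart by mitochondrial share fell outside the range of the other 13 (1968 to 3187 TPM). The change between SMA and WT was 0.33 (95% interval -0.44 to 1.09, adjusted p = 0.653) with them and -0.067 without them. The low values were not particular to these genes. Motor neuron markers summed to 575 and 439 TPM in WT 1 and SMA+Pifithrin-alpha 3, and to 647 TPM or more elsewhere. Tubulin genes summed to 8427 and 9959 TPM in these libraries, and to 13076 TPM or more elsewhere. Other neuronal genes such as Snap25 and Thy1 summed to 2426 and 2922 TPM, within the range of the others. How far RNA quality, which the mitochondrial share can reflect, or the makeup of the captured cells sets these levels was not tested.

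**Figure D3:**
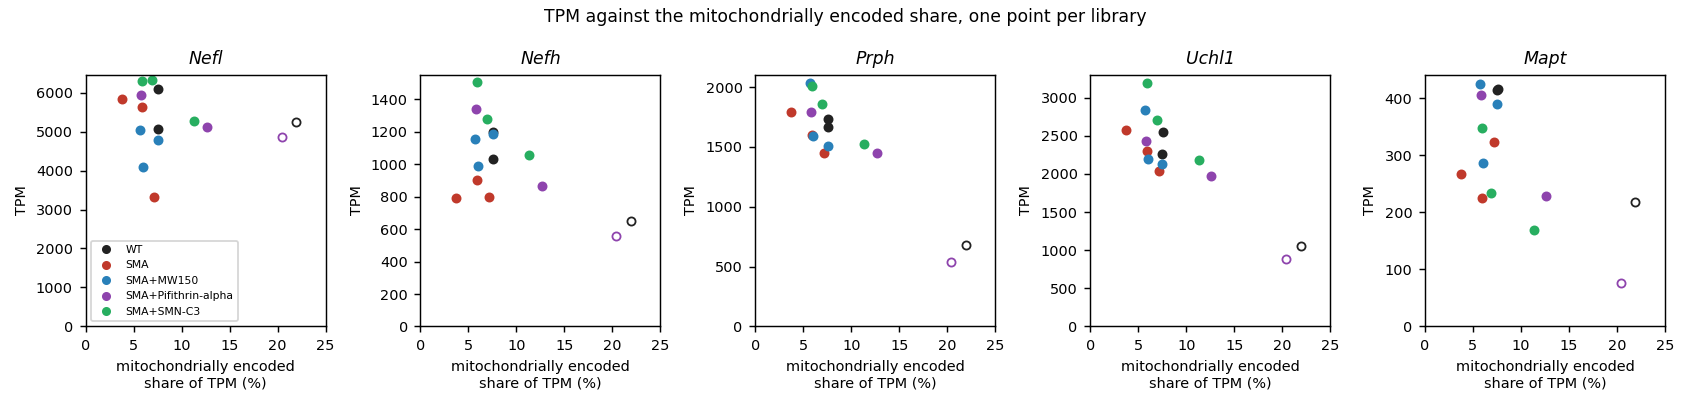
Level in TPM (vertical axis, from 0) of 5 of the genes against the share of TPM taken by the 13 mitochondrially encoded genes (horizontal axis, %). Each point is 1 library colored by group, with WT 1 and SMA+Pifithrin-alpha 3 as open circles. Prph, Uchl1 and Nefh are lowest in these libraries, whereas Nefl at 5247 and 4867 TPM lies within the range of the others.

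Stmn2 encodes a stathmin of growing and regenerating axons that binds tubulin dimers. It had the smallest spread of the 10 genes within groups (SD of 0.23 on the log2 scale, against a median of 0.386 for the 1648 genes with a mean of at least 100 TPM). Its levels were 1119, 1778 and 1851 TPM in WT, 1725, 1592 and 1571 TPM in SMA and 1761, 1997 and 1694 TPM with MW150. With Pifithrin-α they were 1891, 1523 and 1314 TPM, and with SMN-C3 1639.7, 1942 and 1718 TPM. The change between SMA and WT was 0.076 (95% interval -0.41 to 0.56, adjusted p = 0.881), the tightest interval of the set. WT 1 held the lowest Stmn2 level, and without it and SMA+Pifithrin-alpha 3 the change was -0.16.

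Gap43 encodes a membrane protein of growth cones. Its values were 951, 1434 and 1596 TPM in WT, 1454, 1284 and 1325 TPM in SMA and 1428, 1657 and 1136 TPM with MW150. With Pifithrin-α they were 1342, 1060.3 and 902 TPM, and with SMN-C3 1218, 1639.8 and 1333 TPM. The Pifithrin-α group had the lowest mean, 1101 ± 223 TPM (SD, n = 3), but overlapped SMA. Its change from SMA was -0.32 (95% interval -0.84 to 0.21, adjusted p = 0.571), and -0.18 without WT 1 and SMA+Pifithrin-alpha 3.

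Map1b and Mapt encode microtubule-associated proteins, Map1b being prominent in growing axons and tau in maturing ones. The gene value of Map1b, which rests mostly on short noncoding models as described below, ranged from 970 TPM to 2175 TPM. Its change was -0.038 (95% interval -0.63 to 0.55, adjusted p = 0.953) between SMA and WT (-0.079 without WT 1 and SMA+Pifithrin-alpha 3) and 0.35 (95% interval -0.24 to 0.94, adjusted p = 1) under MW150. Mapt had the widest spread of the 10 genes within groups (SD of 0.67 on the log2 scale). It stood at 217, 416 and 413 TPM in WT, 267, 324 and 225 TPM in SMA and 389.6, 424 and 287 TPM with MW150. The Pifithrin-α libraries held 405, 229 and 75.4 TPM and the SMN-C3 libraries 169, 348 and 234 TPM. SMA+Pifithrin-alpha 3 was lowest by a wide margin. Between SMA and WT the change was -0.31 (95% interval -1.28 to 0.66, adjusted p = 0.738), and -0.62 without WT 1 and SMA+Pifithrin-alpha 3.

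Because TPM values of a library sum to a fixed total, the changes above also carry the shift of the whole table. Between SMA and WT the median change over the 15425 genes was 0.24. Against SMA it was 0.056 with MW150, -0.22 with Pifithrin-α and -0.23 with SMN-C3. In the comparison of SMA with WT 4 of the 10 estimates were positive, with a median of -0.031. Of all tested genes 66.5% were positive, as were 74 of the 108 genes of other lists described below. After median-of-ratios scaling 2 of 10 were positive, with a median of -0.28 and a range of -0.60 (Nefm) to 0.11 (Prph). The scaled median of all tested genes was 0.038, and their signs were not counted after scaling. The triplet then stood at -0.44 for Nefl, -0.60 for Nefm and -0.41 for Nefh. Under SMN-C3 9 of 10 estimates were positive without scaling and 10 of 10 with it, from 0.098 (Mapt) to 0.88 (Nefh). Of all tested genes 26.6% were positive without scaling, as were 48 of the 108 genes of the other lists. The scaled median of the 10 was 0.40, against -0.0070 for all tested genes. Over the 8 lists of other cytoskeletal and neuronal genes described below it ranged from 0.073 (axon growth and injury genes) to 0.43 (tubulins). The same lists gave -0.25 (tubulin folding cofactors) to 0.14 (intermediate filament partners and other filaments) after scaling for SMA against WT. None of the 10 genes was called after scaling. The smallest adjusted p was 0.344 for SMA against WT and 0.234 for SMA+SMN-C3 against SMA. Without WT 1 and SMA+Pifithrin-alpha 3, and without scaling, all 10 estimates were below 0 for SMA against WT (-0.62 to -0.067), with a smallest adjusted p of 0.468. For SMN-C3 against SMA 9 of 10 were above 0, with a smallest adjusted p of 0.0909. The signs of all tested genes were not counted in that setting.

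Ratios of 2 genes within a library do not depend on what other genes take, so they describe the subunit transcripts relative to each other. Protein was not measured, so the makeup of the filament itself is not known from them. Of the summed TPM of the 5 filament genes, Nefm made up 40.3 ± 2.79%, Nefl 38.6 ± 4.26%, Prph 11.2 ± 2.62%, Nefh 7.38 ± 1.11% and Ina 2.57 ± 0.397% (mean and SD, n = 15). Medium and light subunit transcripts were thus near parity. Heavy subunit transcripts were below both in every library, with a median ratio of 0.203 to Nefl and 0.188 to Nefm.

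The Nefm/Nefl ratio was 0.982, 1.20 and 1.06 in WT, 0.910, 1.20 and 0.830 in SMA and 1.47, 1.22 and 1.14 with MW150. It was 1.12, 0.933 and 0.856 with Pifithrin-α and 0.940, 1.12 and 0.936 with SMN-C3. The MW150 libraries were the only group wholly above 1, yet WT 2 and SMA 2 reached 1.20, so the groups overlapped. The Nefh/Nefl ratio was 0.124, 0.204 and 0.196 in WT and 0.136, 0.241 and 0.160 in SMA. It was 0.249, 0.229 and 0.243 with MW150, 0.226, 0.169 and 0.115 with Pifithrin-α and 0.201, 0.239 and 0.203 with SMN-C3. Here SMA 2 was as high as the MW150 libraries, while WT 1 and SMA+Pifithrin-alpha 3 were the lowest.

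The Nefh/Nefm ratio was the most even under SMN-C3, at 0.214, 0.214 and 0.217. It was 0.126, 0.1696 and 0.185 in WT, 0.150, 0.201 and 0.193 in SMA, 0.169, 0.188 and 0.213 with MW150 and 0.201, 0.181 and 0.134 with Pifithrin-α. All 3 SMN-C3 libraries were above all 3 SMA libraries, a fold of 1.20. The exact two-sided permutation test gave p = 0.1, the smallest that 3 against 3 libraries allow, and 0.824 after adjustment over the 28 ratio comparisons tested.

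Prph/Nefl was 0.130, 0.329 and 0.284 in WT, 0.307, 0.435 and 0.283 in SMA and 0.316, 0.403 and 0.390 with MW150. It was 0.303, 0.282 and 0.111 with Pifithrin-α and 0.289, 0.318 and 0.295 with SMN-C3. WT 1 and SMA+Pifithrin-alpha 3 were again far below the other 13 libraries, which ranged from 0.282 to 0.435. Ina/Nefl ranged from 0.0464 to 0.109, with SMA 2, the library of lowest Nefl, at the top. Map1b/Mapt lay between 3.01 and 6.68 in 14 libraries and was 12.9 in SMA+Pifithrin-alpha 3. This ratio uses the gene value of Map1b, so it does not describe the coding transcripts alone.

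The ratio of the growth genes Gap43/Stmn2 was the steadiest, with a highest value only 1.29 times the lowest. It was 0.850, 0.807 and 0.862 in WT, 0.843, 0.807 and 0.843 in SMA and 0.811, 0.830 and 0.670 with MW150. It was 0.710, 0.696 and 0.687 with Pifithrin-α and 0.743, 0.845 and 0.776 with SMN-C3. All 3 Pifithrin-α libraries were below all 3 SMA libraries, a fold of 0.840 (exact permutation p = 0.1, adjusted p = 0.824 over 28 ratio comparisons). Over the 5 groups the exact permutation test of F gave p = 0.0447 for this ratio, and an adjusted p of 0.313 over the 7 ratios. Without WT 1 and SMA+Pifithrin-alpha 3 its p was 0.162. The other 6 ratios gave exact permutation p-values of 0.154 (Nefm/Nefl) to 0.344 (Map1b/Mapt). Map1b/Mapt reached an exact permutation p of 0.0261 without the same libraries. Values without these libraries are not adjusted over the 7 ratios, and that setting was chosen after the data were seen. Of the 28 comparisons of a ratio between 2 groups, 2 did not overlap, those named above. Where nothing differs, 3 against 3 libraries still separate with a probability of 0.1 in each comparison.

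**Figure D4:**
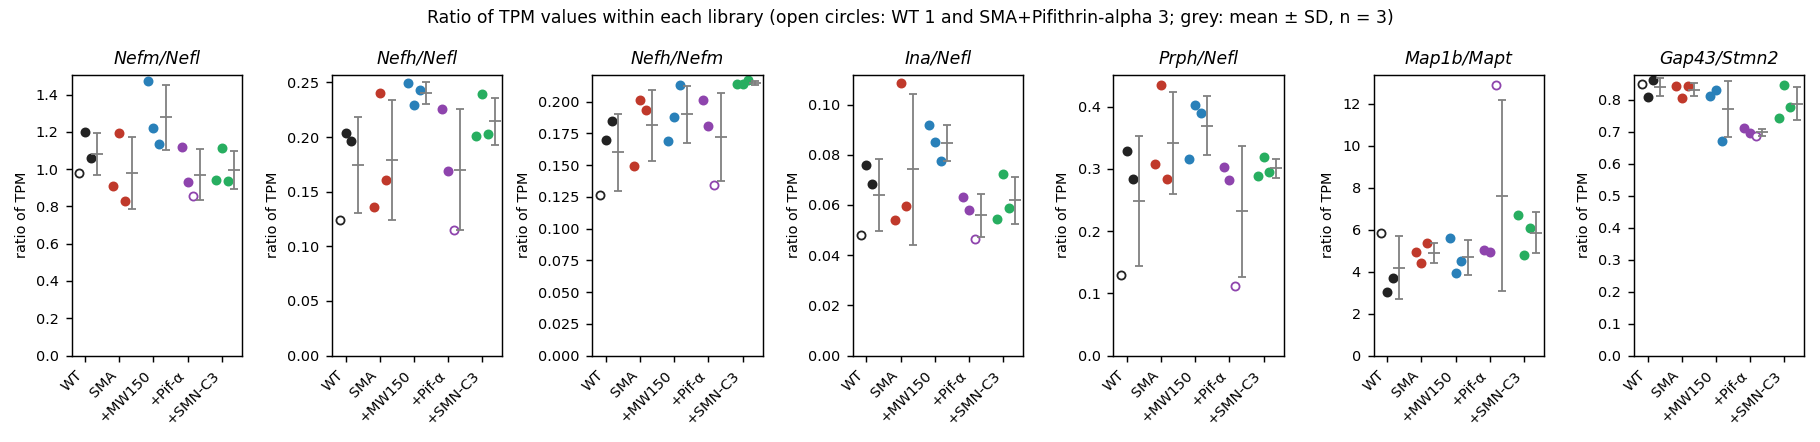
Ratio of TPM values (vertical axis, from 0) for 7 pairs of genes in each library, by group (horizontal axis). Open circles are WT 1 and SMA+Pifithrin-alpha 3, and grey bars show the mean ± SD (n = 3). The SMN-C3 points for Nefh/Nefm coincide near 0.215, and the Pifithrin-α points for Gap43/Stmn2 lie at 0.687 to 0.710, below all SMA points.

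The transcript table divides each gene among annotated models, and these splits are estimates with no test here. On GRCm38 in GENCODE M21, Prph lies at chr15:99055174-99058978 (plus strand) and has 4 models. In 2 of them, Prph-202 and Prph-204, the intron of 96 bases between exons 4 and 5 (chr15:99056937-99057032) is kept as exon. A larger peripherin variant is known to arise in this way. The intron is shown because it is the stretch that distinguishes these models. Capitals mark the intron and lower case the 12 exon bases on each side, read 5′ to 3′ on the plus strand.
Prph intron 4: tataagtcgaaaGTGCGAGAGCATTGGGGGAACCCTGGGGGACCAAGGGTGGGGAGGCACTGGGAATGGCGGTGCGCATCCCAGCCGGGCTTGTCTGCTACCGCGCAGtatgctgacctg
The intron starts with GT and ends with AG, is 68.8% G or C, and its length is a multiple of 3. The models that keep it made up 10.5, 8.11 and 9.26% of Prph TPM in WT, 9.29, 10.2 and 9.05% in SMA and 10.2, 9.74 and 10.01% with MW150. They made up 11.9, 10.1 and 8.77% with Pifithrin-α and 7.33, 7.14 and 7.24% with SMN-C3. The 3 SMN-C3 libraries were below all 12 others, of which the lowest was 8.11%. Of 10383 transcript models with a mean share of 5% to 95% of genes at 10 TPM or more in every library, 0.684% were likewise lowest in all 3 SMN-C3 libraries. This share was singled out after its values were seen. Mature transcripts that keep the intron and RNA not yet spliced cannot be told apart in it.

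Mapt lies at chr11:104231390-104332090 (plus strand) and has 12 models, of which Mapt-202 and Mapt-203 hold the large exon 4A that defines the "big tau" of peripherally projecting neurons. They differ in the 5′ part of that exon, 759 bases long in Mapt-203 and 711 in Mapt-202. The 48 bases (chr11:104298498-104298545) by which they differ are given in capitals, followed by the next 24 bases in lower case, on the plus strand.
Mapt exon 4A, extra part: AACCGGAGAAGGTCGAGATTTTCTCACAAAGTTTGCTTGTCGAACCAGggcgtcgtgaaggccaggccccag
Both models with exon 4A together made up 13.6, 12.9 and 18.0% of Mapt TPM in WT, 19.9, 17.6 and 23.2% in SMA and 19.9, 23.7 and 16.4% with MW150. Their share was 19.5, 18.0 and 17.3% with Pifithrin-α and 20.7, 22.0 and 24.7% with SMN-C3. WT 1 and WT 2 were the lowest of all 15 libraries, but WT 3 lay among the SMA values. Exon 10 of tau, which sets the number of microtubule repeats, cannot be read from these values. All 5 models that hold both exons beside it also hold the exon itself (93 bases).

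The gene value of Map1b rests mostly on short noncoding models. Map1b lies at chr13:99421446-99516540 (minus strand), and its full coding model, Map1b-201, made up 12.0% to 24.8% of the gene's TPM. This model stood at 316, 197 and 241 TPM in WT and 189, 188 and 187 TPM in SMA. It was at 259.9, 239 and 204.3 TPM with MW150, 249.8, 243 and 179.5 TPM with Pifithrin-α and 195, 236 and 196 TPM with SMN-C3. All 3 SMA libraries were below all 3 WT, MW150 and SMN-C3 libraries. Of 41262 transcript models at 1 TPM or more in 3 or more libraries, 4.35% were likewise lower in every SMA than in every WT library, 8.9% than in every MW150 library and 3.06% than in every SMN-C3 library. All of these at once held for 0.32%. This combination was singled out after its values were seen. It leaves out Pifithrin-α, where SMA+Pifithrin-alpha 3 (179.5 TPM) was below every SMA library. The short model Map1b-202 was at 0 in WT 1 and SMA+Pifithrin-alpha 3, at 3.32 TPM in SMA+Pifithrin-alpha 2 and at 82.5 TPM in SMA+SMN-C3 1. These are the 4 libraries of highest mitochondrial share, and the other 11 held 127 to 662 TPM. The gene 5330431K02Rik overlaps Map1b on the same strand, so the split of reads between them is uncertain.

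**Figure D5:**
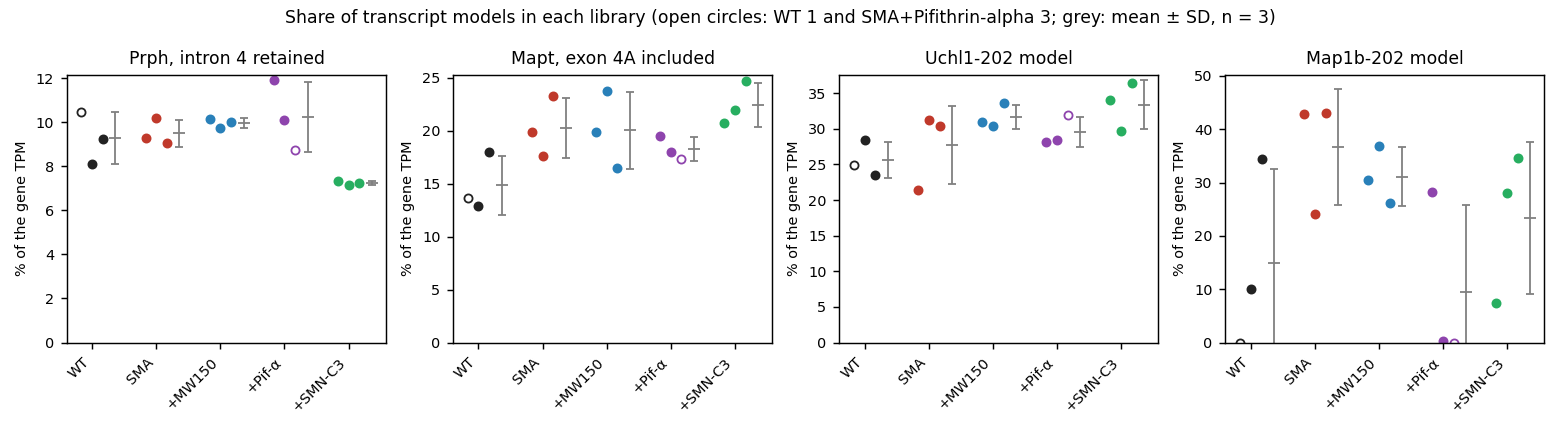
Share of a gene's TPM (vertical axis, %, from 0) taken by the named transcript models in each library, by group (horizontal axis). Open circles are WT 1 and SMA+Pifithrin-alpha 3, and grey bars show the mean ± SD (n = 3), clipped at 0. The SMN-C3 points for Prph lie at 7.14% to 7.33%, below all others, and the Map1b-202 model is at 0 in both open circles.

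Of the other genes, Nefl, Nefh and Ina have 1 annotated model each, Nefm and Gap43 have 2, and Stmn2 and Uchl1 have 4. Nefl (chr14:68083863-68089095 (plus strand)) and Nefm (chr14:68082590-68124846 (minus strand)) are neighbours on opposite strands, and the rarely used model Nefm-202 (at most 4.64 TPM) has an exon that overlaps Nefl. Strand use in the counting is not given in the sources used here, so reads of overlapping genes on opposite strands cannot be told apart. This also touches Ina (chr19:47014698-47025327 (plus strand)), which overlaps Nt5c2, Mapt, which overlaps 3 genes, and Uchl1 (chr5:66676091-66687234 (plus strand)), which overlaps Uchl1os. Nefh lies at chr11:4938754-4948064 (minus strand) with no overlapping gene, as does Stmn2 at chr3:8509360-8561606 (plus strand). Gap43 lies at chr16:42248442-42340651 (minus strand) and hosts the microRNA gene Mir6540.

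The 10 genes were set beside 8 lists of other cytoskeletal and neuronal genes, 108 of whose 110 members were tested. None of the 108 was called in any of the 7 comparisons by limma. At an unadjusted p under 0.05 there were 12 of the 108 for SMA against WT, 2 for MW150, 13 for Pifithrin-α and 7 for SMN-C3 against SMA. Among all tested genes the shares were 13.5%, 1.9%, 10.7% and 8.53% in the same order. Values did not overlap for 15.7% of them between SMA and WT, against 18.3% of all tested genes. The median change of SMA against WT was between -0.0072 (tubulin folding cofactors) and 0.35 (microtubule regulators) over the 8 lists. Without WT 1 and SMA+Pifithrin-alpha 3, Vim was called for SMA against WT and Map4 for SMN-C3 against SMA. Among all tested genes 88 and 166 were called in these comparisons in that setting. The genes named next are those of smallest p for SMA against WT in each list, hence its extremes. The tubulin Tubb6 gave the smallest adjusted p of them, with a change of 2.11 (adjusted p = 0.0741), from 7.17, 10.3 and 15.5 TPM in WT to 86.9, 27.6 and 47.4 TPM in SMA. It stood at 14.5, 18.2 and 14.9 TPM with SMN-C3, a change from SMA of -1.56 (adjusted p = 0.320). The tubulin Tuba8 gave 1.74 (adjusted p = 0.248), and 0.81 without WT 1 and SMA+Pifithrin-alpha 3. All 13 tubulin genes had positive estimates, with a median of 0.29, close to the median of all genes (0.24), and of 0.041 after scaling.

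Among intermediate filament genes outside the set, vimentin (Vim), which is typical of glia and immature cells, gave 1.31 (adjusted p = 0.133), and 1.28 without WT 1 and SMA+Pifithrin-alpha 3 (limma adjusted p = 0.0488). Map4, a microtubule-associated protein found in many cell types, was chosen after its values were seen. It was at 314, 564 and 724 TPM in SMA and 178, 237 and 184 TPM with SMN-C3, a change of -1.34 (adjusted p = 0.236), with an adjusted p of 0.0360 without the same libraries. The nuclear lamin Lmna gave 1.10 (adjusted p = 0.321) for SMA against WT, and 0.69 without them. Of 31 microtubule regulators 23 had positive estimates and 6 an unadjusted p under 0.05. Among all tested genes the shares were 66.5% and 13.5%. The median change of these regulators was 0.35, and 0.10 after scaling. The dendritic protein Map2 was at 279.7, 105 and 119 TPM in WT and 62.2, 89.1 and 82.6 TPM in SMA, a change of -0.97 (adjusted p = 0.254). Map2 was highest in WT 1, and without WT 1 and SMA+Pifithrin-alpha 3 the change was -0.53. Tppp, an oligodendrocyte protein, gave 1.10 (adjusted p = 0.269). Of the spectrin and actin genes, Gsn gave 1.66 (adjusted p = 0.264) and the spectrin Sptbn1 -0.70 (adjusted p = 0.304). Without the same libraries they gave 1.09 and -0.39. The tubulin folding cofactors Tbca and Tbce gave -0.70 (adjusted p = 0.371) and -0.50 (adjusted p = 0.387). Tbca was at 1431, 743 and 575 TPM in WT, and without WT 1 and SMA+Pifithrin-alpha 3 its change was -0.32. The axon injury genes Sprr1a and Smad1 gave 2.24 (adjusted p = 0.433) and 0.48 (adjusted p = 0.531), and 1.72 and -0.0077 without those libraries. The ubiquitin gene Rps27a gave 0.25 (adjusted p = 0.538). The synaptic and surface genes Snap25 and Thy1 gave -0.51 (adjusted p = 0.398) and -0.44 (adjusted p = 0.473).

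Marker genes of other cell types were measured in the same libraries. Of all tested genes 66.5% had positive estimates for SMA against WT and 0.363% were called. Of 8 microglia genes all 8 had positive estimates for SMA against WT, and C1qc, a complement gene, was the only gene of all marker lists to be called, with a change of 1.86 (adjusted p = 0.0144). Without WT 1 and SMA+Pifithrin-alpha 3 its neighbour in the complement complex, C1qa, was called as well (1.56, limma adjusted p = 0.0349), and C1qc also for SMN-C3 against SMA (-1.32, limma adjusted p = 0.0339). In that setting 88 of all tested genes were called for SMA against WT and 166 for SMN-C3 against SMA. Microglia genes summed to 18.8 to 47.1 TPM in WT, 83.5 to 129 TPM in SMA, 73.6 to 95.5 TPM with MW150, 24.6 to 70.6 TPM with Pifithrin-α and 41.2 to 57.4 TPM with SMN-C3. Astrocyte genes summed to 208 to 261 TPM in WT, 287 to 577 TPM in SMA, 246 to 488 TPM with MW150, 148 to 274 TPM with Pifithrin-α and 109 to 259.7 TPM with SMN-C3. Microglia sums were higher in every SMA and MW150 library than in every WT library. Of all tested genes 18.3% did not overlap between SMA and WT, and 19.9% between MW150 and WT. Oligodendrocyte lineage genes summed to 685 to 2070.4 TPM in WT, 886 to 4252 TPM in SMA, 976 to 5842 TPM with MW150, 444 to 1376 TPM with Pifithrin-α and 641 to 1811 TPM with SMN-C3. Schwann cell genes summed to 40.2 to 45.5 TPM in WT, 62.9 to 239.8 TPM in SMA, 90.0 to 238 TPM with MW150, 76.3 to 114 TPM with Pifithrin-α and 87.1 to 103 TPM with SMN-C3. Schwann cell sums in all 12 libraries of the SMA genotype were above those of WT. The part of these transcripts in the levels of the 10 genes was not tested.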

How the data were processed

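The data are 15 RNA-seq libraries from lumbar motor neurons, 3 in each of 5 groups taken from the labels. The authors deposited TPM values per gene (36144) and per transcript (118489), and each library sums to 1000000. The submitters' processing notes name kallisto 0.44.0, DESeq2 and the builds GRCm38.p6 and mm10, with no role given. TPM values hold no counts, so depth is unknown, no counting interval is given and no count model was fitted. Of the transcripts, 116816 (98.6%) matched GENCODE M21 (GRCm38), from which coordinates, transcript models and sequences were taken. The annotation release was inferred from this match.

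The 15425 genes that reached 1 TPM in 3 or more libraries were tested as log2(TPM + 1) with limma 3.58.1 in R 4.3.3, with 1 mean per group, a trended spread shared by all 15 libraries, two-sided tests and Benjamini-Hochberg adjustment within each of 7 comparisons. Ratios were compared by exact two-sided permutation of their log2 values, over 1401400 partitions for the 5 groups. Transcript shares were described only. The steps were tested on simulated data. Python 3.11.15 was used with matplotlib 3.10.9 and pandas 2.3.3.

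The named genes are the 10 members, Smn1, and from each other list the called genes or else the 2 of smallest p for SMA against WT. Of these, 1 is not reported here. Members, lists and rules were chosen with earlier results of these data known. Alternatives changed the pseudocount, filter, scaling, weights, samples and libraries, and included a replicate block. Replicate numbers did not pair the libraries. The libraries are described as biological replicates. Sequences of proteins were not used here.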

Additional observations from a re-analysis of the deposited data

How the results depend on the processing

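Over the 70 changes of the 10 genes, 1050 alternative values were computed, and none was called by limma (smallest adjusted p 0.0835). The sign differed from that reported in 123 of them, all for changes that had not passed the test, and in 25 of 252 differences of log2 ratios. The cause of these shifts was not tested. With the replicate block the number of called genes was 48 for SMA against WT (56 without it), 11 for SMN-C3 against SMA, 25 for MW150 against WT and 15 for Pifithrin-α against WT, and none of the 10 genes was called. Numbers are only names here: 4 of 30 pairs of libraries with the same number had correlated deviations above 0.1, and 4 of 15 libraries correlated best with their own number. Array weights used limma's gene-by-gene method, since its default algorithm did not converge. TPM values hold no depth, so the precision of single values is unknown. Exact tests of 3 against 3 libraries cannot go below p = 0.1. The alternative without WT 1 and SMA+Pifithrin-alpha 3 was chosen after seeing the data.

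With a pseudocount of 0.1 TPM the number of called genes was 0 for MW150 against SMA and 0 for Pifithrin-α against SMA. With no filter on low values the number of called genes was 35 for SMA against WT, 2 for MW150 against SMA, 3 for Pifithrin-α against SMA, 13 for MW150 against WT, 6 for Pifithrin-α against WT and 17 for the 5 groups. With a filter at a mean of 5 TPM the number of called genes was 0 for MW150 against SMA, 0 for Pifithrin-α against SMA, 4 for SMN-C3 against SMA and 22 for the 5 groups. With median-of-ratios scaling the number of called genes was 5 for SMN-C3 against WT. Changes of the other sign were, for SMA against WT, Stmn2 -0.18 and Gap43 -0.19. For MW150 against SMA they were Prph -0.0020, Gap43 -0.041 and Uchl1 -0.033. For Pifithrin-α against SMA they were Ina 0.061, Stmn2 0.20 and Map1b 0.26. For SMN-C3 against SMA they were Mapt 0.098. For MW150 against WT they were Nefh -0.080, Ina -0.15, Stmn2 -0.10, Gap43 -0.23, Map1b -0.019 and Mapt -0.22. With mitochondrially encoded genes left out the log2 changes of the other sign were, for SMA against WT, Stmn2 -0.035 and Gap43 -0.050. For Pifithrin-α against SMA they were Stmn2 0.057 and Map1b 0.11. For SMN-C3 against WT they were Nefm -0.066 and Map1b -0.032. With array weights the number of called genes was 100 for SMA against WT, 3 for MW150 against SMA, 1574 for Pifithrin-α against SMA, 231 for SMN-C3 against SMA, 91 for MW150 against WT, 609 for Pifithrin-α against WT, 39 for SMN-C3 against WT and 3228 for the 5 groups. Changes of the other sign were, for SMA against WT, Prph -0.020, Stmn2 -0.13, Gap43 -0.13 and Uchl1 -0.019. For MW150 against WT they were Ina -0.0031, Gap43 -0.067 and Mapt -0.14. For Pifithrin-α against WT they were Stmn2 -0.20. For SMN-C3 against WT they were Nefm -0.062, Ina -0.077, Stmn2 -0.012 and Gap43 -0.096. With only the compared groups fitted the number of called genes was 16 for SMA against WT, 2 for MW150 against SMA, 0 for Pifithrin-α against SMA, 21 for SMN-C3 against SMA and 0 for Pifithrin-α against WT. Without WT 1 and SMA+Pifithrin-alpha 3 the number of called genes was 88 for SMA against WT, 166 for SMN-C3 against SMA, 42 for MW150 against WT, 7 for SMN-C3 against WT and 131 for the 5 groups. Changes of the other sign were, for SMA against WT, Prph -0.083, Stmn2 -0.16, Gap43 -0.16 and Uchl1 -0.067. For Pifithrin-α against SMA they were Prph 0.0048, Stmn2 0.060, Map1b 0.21 and Mapt 0.18. For MW150 against WT they were Nefh -0.0044, Ina -0.037, Prph -0.0039, Stmn2 -0.0013, Gap43 -0.12, Mapt -0.20 and Uchl1 -0.019. For Pifithrin-α against WT they were Stmn2 -0.096 and Map1b 0.13. For SMN-C3 against WT they were Nefm -0.088, Ina -0.13, Stmn2 -0.042, Gap43 -0.13 and Map1b -0.00052. Log2 ratio differences of the other sign were Nefm/Nefl 0.081, Nefh/Nefl 0.17 and Nefh/Nefm 0.087 for Pifithrin-α against SMA and Nefh/Nefl -0.20 and Ina/Nefl -0.029 for SMA against WT. Unadjusted exact permutation p-values over the 5 groups became 0.0261 for Map1b/Mapt and 0.162 for Gap43/Stmn2.

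Leaving out each library in turn gave 20 to 56 for SMA against WT, 9 to 22 for MW150 against WT, 5 to 30 for Pifithrin-α against WT, 2 to 8 for SMN-C3 against WT, 20 to 47 for the 5 groups, 0 to 1 for MW150 against SMA, 0 to 1 for Pifithrin-α against SMA and 0 to 11 for SMN-C3 against SMA called genes. The log2 changes that took either sign ranged, for SMA against WT, over Nefl -0.33 to 0.072, Nefh -0.42 to 0.020, Ina -0.25 to 0.12, Prph -0.083 to 0.59, Stmn2 -0.16 to 0.21, Gap43 -0.16 to 0.21, Map1b -0.095 to 0.054 and Uchl1 -0.067 to 0.57. For MW150 against WT the ranges were Nefm -0.14 to 0.16, Nefh -0.0044 to 0.43, Ina -0.037 to 0.34, Prph -0.0039 to 0.67, Stmn2 -0.0013 to 0.36, Gap43 -0.12 to 0.25, Mapt -0.20 to 0.28 and Uchl1 -0.019 to 0.62. For Pifithrin-α against WT the ranges were Nefl -0.13 to 0.036, Nefh -0.42 to 0.21, Prph -0.60 to 0.36, Stmn2 -0.22 to 0.14, Map1b -0.36 to 0.17 and Uchl1 -0.57 to 0.26. For SMN-C3 against WT the ranges were Nefm -0.12 to 0.13, Ina -0.13 to 0.26, Stmn2 -0.042 to 0.32, Gap43 -0.13 to 0.25 and Map1b -0.091 to 0.19. For MW150 against SMA the ranges were Nefl -0.31 to 0.091, Prph -0.050 to 0.16, Gap43 -0.086 to 0.19 and Uchl1 -0.085 to 0.13. For Pifithrin-α against SMA the ranges were Nefl -0.12 to 0.29, Nefm -0.051 to 0.29, Nefh -0.26 to 0.37, Prph -0.86 to 0.0048, Stmn2 -0.20 to 0.060, Map1b -0.32 to 0.21 and Mapt -1.03 to 0.18. For SMN-C3 against SMA the ranges were Ina -0.050 to 0.29, Gap43 -0.086 to 0.13, Map1b -0.053 to 0.23 and Mapt -0.44 to 0.085. Log2 ratio differences ranged, for SMA against WT, over Nefh/Nefl -0.21 to 0.20, Ina/Nefl -0.15 to 0.36 and Gap43/Stmn2 -0.043 to 0.0067. Ratio ranges for Pifithrin-α against SMA were Nefm/Nefl -0.11 to 0.15, Nefh/Nefl -0.32 to 0.17 and Nefh/Nefm -0.21 to 0.087. Ratio ranges for SMN-C3 against SMA were Nefm/Nefl -0.070 to 0.19, Ina/Nefl -0.39 to 0.11 and Prph/Nefl -0.28 to 0.027. Ratio ranges for MW150 against SMA were Nefh/Nefm -0.059 to 0.15 and Map1b/Mapt -0.21 to 0.040. Unadjusted exact permutation p-values over the 5 groups ranged over 0.0372 to 0.441 for Nefm/Nefl and 0.00474 to 0.0981 for Gap43/Stmn2.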

Other observations

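The summed TPM of Nefl, Nefm and Nefh was compared with 7774 other tested genes of at least 10 TPM on average, on the log2 scale after median-of-ratios scaling. The 5 genes with the highest Pearson r across the 15 libraries were Layn (0.921), Kctd6 (0.898), 1700021F05Rik (0.887), Elovl4 (0.884) and Kctd8 (0.875). Without WT 1 and SMA+Pifithrin-alpha 3 the values were 0.906, 0.913, 0.865, 0.889 and 0.877. These libraries share groups and the makeup of captured cells, so the values are a description with no test. Layn encodes a membrane lectin, Elovl4 an enzyme that elongates very long fatty acids, and Kctd6 and Kctd8 encode proteins with a tetramerization domain.

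The main retained-intron model of Uchl1 made up 21.5% to 36.5% of Uchl1 TPM, with the highest share in SMA+SMN-C3 3 and the lowest in SMA 1. The noncoding model of Gap43 was at 86.6 TPM, or 9.61% of Gap43, in SMA+Pifithrin-alpha 3 and at no more than 0.322% of Gap43 in the other 14 libraries. Both were noticed after their values were seen.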
